A study of Homo sapiens with 4 samples.

Results

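The mRNAs of 10 genes for Polycomb proteins and for chromatin proteins known to work with TET1 were followed in ovarian cancer cells that did or did not carry a TET1 plasmid. The genes were EZH2, EZH1, SUZ12 and EED of Polycomb repressive complex 2 (PRC2), BMI1 and RING1 of Polycomb repressive complex 1 (PRC1), and OGT, SIN3A, HDAC1 and HDAC2. They were chosen by symbol, and all 10 of 10 were among the 26506 genes of the deposited tables. HeyC2 and SKOV3, both established human ovarian cancer cell lines, were each transfected by lipofection with 3 μg of a pCMV6 vector that held full-length TET1 (TET1-reprogrammed) or with the empty vector (control). All 4 cultures were then kept in Geneticin at 400 μg/ml, so the controls had also been transfected and selected, and whether the selected cells were clones or mixed populations is not given in the sources used here. 1 RNA library was sequenced per condition, hence no difference below has a replicate check and none was tested. In bulk RNA, fewer cells that express a gene and less RNA per cell cannot be told apart.

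PRC2 places methyl groups on lysine 27 of histone H3 through its catalytic subunit, EZH2 or EZH1, and needs SUZ12 and EED for activity, while PRC1 places ubiquitin on histone H2A through RING1 or RNF2 joined to a PCGF protein such as BMI1. Both complexes keep developmental genes silent, and in stem cells TET1, which oxidizes methylated cytosines in DNA, is found at many of the CpG-rich promoters that PRC2 also occupies. TET1 has been found in complexes with the SIN3A scaffold and the deacetylases HDAC1 and HDAC2, and TET proteins bind OGT, the only nuclear and cytosolic enzyme that attaches N-acetylglucosamine to serines and threonines of proteins.

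Expression was read as FPKM, the number of sequenced fragments scaled to transcript length and to all mapped fragments, so levels of different genes can be compared. GAPDH had exactly the same FPKM in the TET1 and control library of a line, and the values of a TET1 library below 40 FPKM were whole steps of 0.01 FPKM times 1 constant, 3.23 in HeyC2 and 1.346 in SKOV3, which shifts every gene by 1.69 and 0.43 on the log2 scale. Negative changes of EZH2, SUZ12, BMI1, RING1, HDAC1 and HDAC2 in SKOV3 and of BMI1 and SIN3A in HeyC2 turned positive when the deposited values were compared with this shift left in and without centring on the all-gene median. EED in SKOV3 stayed negative, at -0.45. The levels below are FPKM after division of the TET1 libraries by this constant. A relative log2 change is log2((TET1 + 1)/(control + 1)) minus its median over all genes with a mean of at least 1 FPKM, and a gene was called higher or lower when it lay at least 1.5-fold from that median. The median itself was 0.06 in HeyC2 and 0.19 in SKOV3. The libraries held an estimated 6730000 to 7430000 fragments, read from the spacing of low values, which gave between 65 and 3337 fragments for each of the 10 genes in HeyC2 and between 81 and 1928 in SKOV3. The 95% intervals in the text rest on these estimated fragments and cover counting error only.

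TET1 was 0.20 FPKM in the HeyC2 control and 0.52 FPKM in HeyC2 TET1. In SKOV3 it was 0.43 FPKM in the control and 1.80 FPKM in TET1. TET1 was thus higher in the TET1 library of both lines, at low levels, and in HeyC2 it stayed below the filter of 1 FPKM. Of the ovarian carcinoma markers, PAX8 was between 74.6 and 194.7 FPKM in the 4 libraries and KRT8 and KRT18 were at least 193 FPKM, whereas WT1 was listed at 0 in all libraries but SKOV3 TET1 (0.53 FPKM), MUC16 was at most 0.05 FPKM, and EPCAM was at most 0.38 FPKM in HeyC2. KRT7, a keratin of the same list, went from 290 to 1125 FPKM in HeyC2 and from 1537 to 21.96 FPKM in SKOV3. Of 7 markers of other cell types, PTPRC and PECAM1 did not exceed 0.28 and 0.09 FPKM, and the summed level of the list went from 58.8 to 165 FPKM in HeyC2 and from 2.44 to 33.6 FPKM in SKOV3. CDH5 and ACTA2 made most of the sum in HeyC2 and COL1A1 in SKOV3 TET1. Their part in the changes below was not tested.

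The lines themselves differed in these genes without the TET1 plasmid (plot of levels by library). In the controls, whose tables were made separately, 5 of the 10 genes were called higher in SKOV3, against 28.6% of 12488 genes, and 1 was called lower, against 29% of genes. These calls are relative to the all-gene median of 0.27 on the log2 scale, whereas the multiples below are of FPKM without centring. EZH2 was 5.15 times as high in the SKOV3 control as in the HeyC2 control, SUZ12 5.21 times and EED 2.64 times, so 3 of the 4 PRC2 genes stood higher in SKOV3. EZH1, the other catalytic subunit, was 0.945 times as high in the SKOV3 control. BMI1 and HDAC2 were the other genes called higher in SKOV3, at 1.92 and 1.89 times the HeyC2 level. OGT was the 1 gene called lower, at 0.351 times the HeyC2 level.

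**Figure D1:**
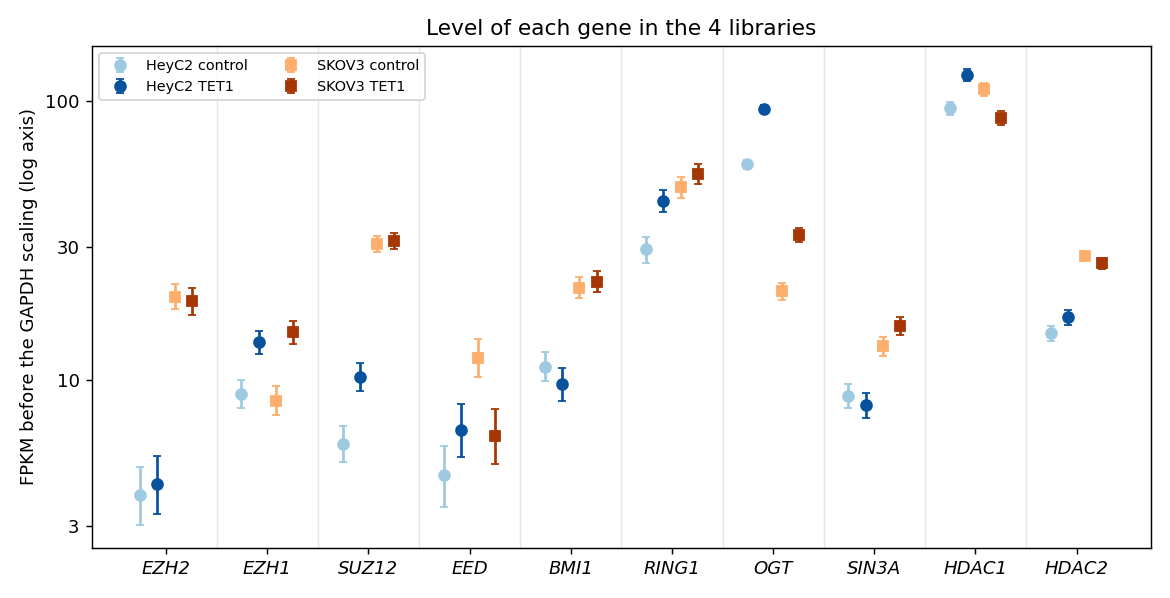
Level of each gene in the 4 libraries, as FPKM before the GAPDH scaling on a log axis; circles are HeyC2, squares SKOV3, light symbols controls and dark symbols TET1, and bars are 95% Poisson intervals on the estimated fragments. EZH2 lies at 3.87 and 4.24 FPKM in HeyC2 and at 19.9 and 19.1 in SKOV3, and EZH1 and OGT lie higher in TET1 than in control in both lines.

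HDAC1 was the highest of the 10 genes in every library, from 87.3 FPKM in SKOV3 TET1 to 125 FPKM in HeyC2 TET1. In the HeyC2 control the order continued with OGT, RING1 and HDAC2, and the intervals of BMI1, EZH1 and SIN3A overlapped from neighbour to neighbour, as did those of SUZ12, EED and EZH2 at the lower end. In HeyC2 TET1 the order began in the same way, EZH1 came next, and SUZ12, BMI1, SIN3A, EED and EZH2 followed with intervals that overlapped between neighbours. In the SKOV3 control RING1 was second, and the intervals of SUZ12 (28.9 to 32.8 FPKM) and HDAC2 (26.6 to 29.1 FPKM) overlapped slightly. Intervals also overlapped between neighbours among BMI1, OGT and EZH2 and between SIN3A and EED, and EZH1 was last. Overlap of separate intervals does not show that a difference lies within counting error. In SKOV3 TET1 RING1 was second, OGT and SUZ12 overlapped, HDAC2 followed, BMI1 and EZH2 overlapped, SIN3A and EZH1 overlapped, and EED was last. EZH1 and EED thus exchanged the lowest place between the SKOV3 libraries.

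After TET1 the genes had a median relative log2 change of 0.37 in HeyC2 and -0.14 in SKOV3, where the quartiles of all genes were -0.28 and 0.30 in HeyC2 and -0.44 and 0.48 in SKOV3. In HeyC2, 2 of the 10 genes were called higher, SUZ12 and OGT, against 12.5% of 11894 genes, and 0 were called lower, against 9.17% of genes. In SKOV3, 0 were called higher, against 20.7% of 13013 genes, and 1 was called lower, EED, against 18.2% of genes. None was called in both lines (0 of 10), where 3.56% of 11134 genes were called higher and 2.54% lower. This count changed with the scaling, as OGT passed the limit in both lines before the GAPDH scaling without centring (0.65 in HeyC2, 0.645 in SKOV3), as TPM (0.586 and 0.71) and in the deposited values without centring (2.33 and 1.06). In the deposited values without centring EZH1 (2.18 and 1.15) and SIN3A (1.48 and 0.63) passed it in both lines as well. The share of all genes called in both lines was not computed for these settings. EZH1 and OGT lay above the all-gene median in both lines (2 genes), a pattern that 25.7% of all genes had. The 95% counting interval excluded 0 for 7 genes in HeyC2 and for 7 in SKOV3. The share over all genes was not computed, so these counts cannot be read as particular to the 10 genes. As counting error is only part of the difference between cultures, the intervals do not replace replicates.

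**Figure D2:**
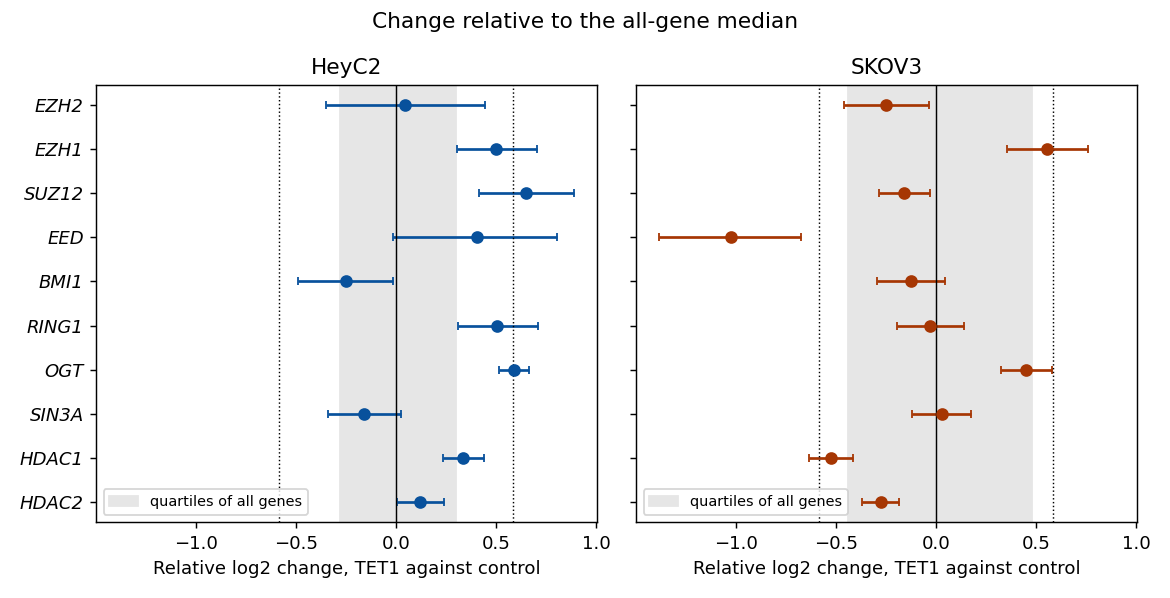
Relative log2 change of each gene, TET1 against control, in HeyC2 (left) and SKOV3 (right); points are the 1 library pair of each line, bars are 95% counting intervals, the grey band spans the quartiles of all genes and dotted lines mark 1.5-fold. EZH1 and OGT lie to the right of 0 in both panels, EED lies at 0.40 in HeyC2 and at -1.02 in SKOV3, and HDAC1 at 0.34 and -0.53.

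EZH2 and EZH1 are the alternative catalytic subunits of PRC2. EZH2 (chr7:148504349-148581413 on hg19, minus strand), the form linked to dividing cells, was 3.87 FPKM in the HeyC2 control and 4.24 in HeyC2 TET1, against 19.9 and 19.1 in SKOV3 control and TET1. The relative log2 change of EZH2 was 0.047 in HeyC2 (interval -0.35 to 0.44) and -0.25 in SKOV3 (interval -0.46 to -0.03). With 71 estimated fragments in each HeyC2 library, the HeyC2 interval is wide and includes 0. The sign in HeyC2 turned to -0.04 when the deposited values were centred without removal of the scaling. EZH1 (chr17:40852293-40897067, minus strand), the form that prevails in resting tissues, was 8.93 FPKM in the HeyC2 control and 13.7 in HeyC2 TET1, against 8.44 and 14.8 in SKOV3 control and TET1. In FPKM the controls thus held nearly the same level and both TET1 libraries lay above both controls. Relative to the all-gene median difference of the controls, EZH1 was at -0.34 in SKOV3 against HeyC2 (interval -0.56 to -0.12). The relative log2 change of EZH1 was 0.50 in HeyC2 (interval 0.30 to 0.71) and 0.56 in SKOV3 (interval 0.35 to 0.76). Both lay just short of the 1.5-fold limit, which stands at 0.58. EZH1 was positive in all 10 alternative processings in both lines. In HeyC2 it passed the limit only in the deposited values without centring (2.18). In SKOV3 it stayed short with the deposited values centred (0.572), with no filter (0.576) and after correction for GC content and length (0.545). It passed the limit there in the other alternatives, from 0.595 with a pseudocount of 0.1 to 1.15 in the deposited values without centring.

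A ratio of 2 genes within a library does not depend on how the library was scaled. The EZH2 to EZH1 ratio of FPKM was 0.433 in the HeyC2 control and 0.311 in HeyC2 TET1, against 2.36 and 1.29 in SKOV3 control and TET1. It was therefore below 1 in HeyC2 and above 1 in SKOV3 in both conditions. Its log2 change was -0.48 in HeyC2, with an interval of -1.002 to 0.04 that includes 0, and -0.87 in SKOV3, with an interval of -1.18 to -0.56.

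**Figure D3:**
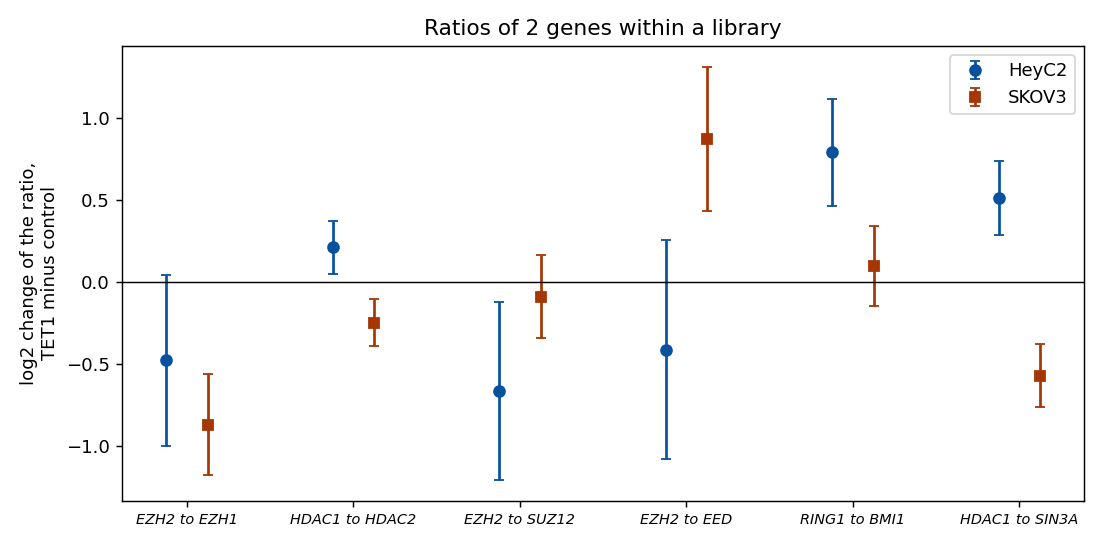
Log2 change of the FPKM ratio of 2 genes within a library, TET1 minus control, for HeyC2 (blue circles) and SKOV3 (brown squares), with 95% counting intervals. The EZH2 to EZH1 ratio is below 0 in both lines (-0.48 and -0.87), whereas the EZH2 to EED, HDAC1 to HDAC2 and HDAC1 to SIN3A ratios lie on opposite sides of 0.

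The promoter windows of EZH2, EED, EZH1 and OGT are printed because these genes span the patterns seen, little change in EZH2, opposite values in EED and higher values in both lines in EZH1 and OGT, and because CG pairs are the sites at which TET1 acts. They run from 250 bases before to 50 bases after a RefSeq start site, on GRCh38.p14, at chr7:148884242-148884541 on the minus strand for EZH2, chr11:86244503-86244802 on the plus strand for EED, chr17:42744991-42745290 on the minus strand for EZH1 and chrX:71532854-71533153 on the plus strand for OGT. Capitals mark each CG pair.
EZH2: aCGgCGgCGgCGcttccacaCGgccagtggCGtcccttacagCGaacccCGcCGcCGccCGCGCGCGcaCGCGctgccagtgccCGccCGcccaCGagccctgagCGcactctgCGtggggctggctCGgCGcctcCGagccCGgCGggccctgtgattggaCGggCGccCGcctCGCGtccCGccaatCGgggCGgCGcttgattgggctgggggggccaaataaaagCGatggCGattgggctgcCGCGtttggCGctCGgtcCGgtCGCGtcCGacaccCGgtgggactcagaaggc
EED: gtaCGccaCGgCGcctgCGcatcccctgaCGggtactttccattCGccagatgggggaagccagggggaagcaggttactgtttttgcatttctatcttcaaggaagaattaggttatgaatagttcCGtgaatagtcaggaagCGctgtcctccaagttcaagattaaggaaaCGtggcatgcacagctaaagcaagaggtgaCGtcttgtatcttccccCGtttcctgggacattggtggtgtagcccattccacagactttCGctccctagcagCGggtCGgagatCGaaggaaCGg
EZH1: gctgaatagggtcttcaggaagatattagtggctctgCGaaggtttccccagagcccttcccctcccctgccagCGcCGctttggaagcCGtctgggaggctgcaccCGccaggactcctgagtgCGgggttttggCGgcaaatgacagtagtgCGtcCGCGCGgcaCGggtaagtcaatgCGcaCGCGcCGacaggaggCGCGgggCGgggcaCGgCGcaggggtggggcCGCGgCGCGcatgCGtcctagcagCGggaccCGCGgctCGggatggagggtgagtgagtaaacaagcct
OGT: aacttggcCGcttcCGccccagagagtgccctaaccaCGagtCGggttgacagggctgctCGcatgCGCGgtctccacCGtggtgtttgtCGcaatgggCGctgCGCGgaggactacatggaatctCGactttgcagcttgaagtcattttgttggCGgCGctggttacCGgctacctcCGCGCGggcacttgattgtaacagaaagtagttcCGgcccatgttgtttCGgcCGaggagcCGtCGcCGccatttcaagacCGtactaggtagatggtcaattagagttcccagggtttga
The windows hold 46, 16, 30 and 26 CG pairs, respectively. All 10 genes matched the table, and over its 35116 windows the median was 14 CG pairs, with quartiles of 4 and 28. BMI1, with 36 and 65 at its 2 listed start sites, RING1 with 41 and SUZ12 with 40 were also above the upper quartile, and the windows of SIN3A, HDAC1 and HDAC2 held between 23 and 28. The counts of EZH1 and OGT thus lay within the range of the other genes. The E2F-type motif, searched as TTTGGCGC or TTTCGCGC on both strands, occurred once in the printed EZH2 window, from base 252, and in none of the other windows of the 10 genes, while 1.15% of all windows held it. DNA methylation was not analysed here.

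SUZ12 (chr17:30264026-30328057, plus strand), the scaffold that holds PRC2 together, was 5.91 FPKM in the HeyC2 control and 10.3 in HeyC2 TET1, against 30.8 and 31.6 in SKOV3 control and TET1. The relative change was 0.65 in HeyC2 (interval 0.42 to 0.89), where it was called higher, and -0.16 in SKOV3, where the sign turned under 4 of 10 alternatives. Reads of SUZ12 can be split with the pseudogene SUZ12P1, which was 0.24 and 0.27 FPKM in HeyC2 control and TET1 and 2.02 and 1.08 in SKOV3. EED (chr11:85912254-85989855, plus strand), which binds methylated lysine 27 and stimulates the enzyme, was 4.55 FPKM in the HeyC2 control and 6.64 in HeyC2 TET1, against 12.01 and 6.32 in SKOV3 control and TET1. The SKOV3 control was the highest of the 4 libraries, and EED in SKOV3 TET1 was close to its level in HeyC2 TET1. EED had a relative log2 change of 0.40 in HeyC2 (interval -0.01 to 0.81) and -1.02 in SKOV3 (interval -1.38 to -0.67), and it was negative in SKOV3 in all 10 alternatives, at -0.45 to -1.14. The EZH2 to EED ratio went from 1.66 in the SKOV3 control to 3.03 in SKOV3 TET1, and from 0.851 to 0.638 in HeyC2, where the interval of its log2 change, -1.08 to 0.25, includes 0. EED had the fewest fragments of the 10 genes in the HeyC2 control (65) and in SKOV3 TET1 (81). The EZH2 to SUZ12 ratio changed by -0.67 on the log2 scale in HeyC2 (interval -1.21 to -0.13) and by -0.09 in SKOV3 (interval -0.35 to 0.16).

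Of the PRC1 genes, RING1 (chr6:33176277-33180499, plus strand), a ubiquitin ligase subunit, was 29.4 FPKM in the HeyC2 control and 44.01 in HeyC2 TET1, against 49.1 and 55.1 in SKOV3 control and TET1. Relative to all genes RING1 changed by 0.51 in HeyC2 (interval 0.31 to 0.71) and -0.03 in SKOV3, where the interval of -0.20 to 0.14 includes 0 and the sign turned under 6 of 10 alternatives. BMI1 (chr10:22610028-22620413, plus strand), also named PCGF4, which pairs with RING1 in canonical PRC1, was 11.2 FPKM in the HeyC2 control and 9.67 in HeyC2 TET1, against 21.5 and 22.6 in SKOV3 control and TET1. BMI1 had a relative log2 change of -0.25 in HeyC2 (interval -0.49 to -0.01) and -0.12 in SKOV3 (interval -0.29 to 0.05), where the sign turned under 4 of 10 alternatives. The RING1 to BMI1 ratio, 2.63 in the HeyC2 control and 4.55 in HeyC2 TET1, had a log2 change of 0.79 (interval 0.46 to 1.11), while in SKOV3 the change was 0.09. BMI1 overlaps the read-through gene COMMD3-BMI1, whose own FPKM lay between 0.24 and 1.82, so the division of reads between them is uncertain.

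OGT (chrX:70752937-70795742, plus strand) was 59.4 FPKM in the HeyC2 control and 93.6 in HeyC2 TET1, against 20.8 and 33.1 in SKOV3 control and TET1. Both HeyC2 libraries lay above both SKOV3 libraries. The relative log2 change was 0.59 in HeyC2 (interval 0.52 to 0.67) and 0.45 in SKOV3 (interval 0.33 to 0.58), and it was positive in all 10 alternatives in both lines. The HeyC2 value lay close to the limit of 0.58, and OGT was no longer called there with upper-quartile centring (0.571). OGT had the most fragments of the 10 genes in HeyC2, 3337 in the TET1 library, and its TET1 to control ratio of FPKM was 1.58 in HeyC2 and 1.59 in SKOV3.

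SIN3A (chr15:75661720-75748183, minus strand), the scaffold of a corepressor complex, was 8.78 FPKM in the HeyC2 control and 8.13 in HeyC2 TET1, against 13.2 and 15.6 in SKOV3 control and TET1. Its relative log2 change was -0.16 in HeyC2 (interval -0.34 to 0.03) and 0.03 in SKOV3 (interval -0.12 to 0.18), where a correction for GC content and length gave -0.02. HDAC1 (chr1:32757684-32799236, plus strand), a histone deacetylase, was 94.5 FPKM in the HeyC2 control and 125 in HeyC2 TET1, against 110 and 87.3 in SKOV3 control and TET1. Its relative log2 change was 0.34 in HeyC2 (interval 0.23 to 0.44) and -0.53 in SKOV3 (interval -0.64 to -0.41). HDAC2 (chr6:114254192-114332472, minus strand), the close paralog of HDAC1, was 14.7 FPKM in the HeyC2 control and 16.8 in HeyC2 TET1, against 27.9 and 26.2 in SKOV3 control and TET1. Its relative log2 change was 0.12 in HeyC2 (interval 0.006 to 0.24) and -0.28 in SKOV3 (interval -0.37 to -0.18). The signs were those of HDAC1 and the sizes smaller. In SKOV3 the sign of both genes turned when the deposited values were not centred. The HDAC1 to HDAC2 ratio was 6.42 in the HeyC2 control and 7.42 in HeyC2 TET1, against 3.96 and 3.33 in SKOV3 control and TET1. The antisense gene HDAC2-AS2 overlaps HDAC2, and the strandedness of the counting is not given in the sources used here.

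The genes with the most similar profile to EZH2 over the 4 libraries, among 9450 genes with a mean of at least 5 FPKM, were SFMBT1, EXOSC6 and HMGB3, at Euclidean distances of 0.06, 0.14 and 0.17 between centred log2 profiles. For EZH1 they were ZDHHC17, B9D1 and TMEM212, at 0.04, 0.06 and 0.07. SFMBT1 was 2.19 and 2.25 FPKM in HeyC2 control and TET1 and 12.2 and 11.8 in SKOV3, and ZDHHC17 was 5.74 and 9.25 in HeyC2 and 5.45 and 10.05 in SKOV3. With 4 libraries such a ranking is a description only.

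EZH2 is also known as a gene that follows cell division, so a list of 17 proliferation genes was read beside it. Their summed level went from 379 to 342 FPKM in HeyC2 and from 1651 to 748 FPKM in SKOV3. In SKOV3, 15 of 17 were called lower (18.2% of all genes) and 0 higher (20.7%), with a median relative log2 change of -1.12, against -0.25 for EZH2. In HeyC2, 7 were called lower (9.17% of all genes) and 3 higher (12.5%), with a median of -0.19, and MKI67 (-2.10), CCNB1 (-1.64), CCNA2 (-1.53), TOP2A (-1.33), RRM2 (-1.27) and CDK1 (-0.82) were the 6 genes called lower in both lines, against 2.54% of all genes. In SKOV3 RRM2 was lowest, at -2.46, and CCNE1 was highest, at -0.14. The 3 genes called higher in HeyC2 were CCNE2 (0.73) and, named after their values were seen, PCNA (0.70) and E2F1 (0.66). In the SKOV3 control, where EZH2 and SUZ12 were high, this list was high as well, and its part in the levels was not tested.

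Beyond the 10 genes, 79 genes were listed from general knowledge. They were partners of these complexes or genes of related function, and are called partner genes here. The filter kept 75 of them in HeyC2 and 76 in SKOV3. In HeyC2, 3 (4%) were called higher and 10 (13.3%) lower, and in SKOV3, 8 (10.5%) were called higher and 12 (15.8%) lower. Of all genes, 12.5% were called higher and 9.17% lower in HeyC2, and 20.7% higher and 18.2% lower in SKOV3, the shares against which each list count below is to be read, and no difference from them was tested. The other PRC2 core genes, the histone-binding RBBP4 and RBBP7, were at 0.09 and -0.08 in HeyC2 and -0.39 and -0.42 in SKOV3. Of 7 PRC2 accessory genes that passed the filter in each line, 1 was called lower in SKOV3 and 0 in HeyC2, namely PHF19, which helps to recruit the complex, at -0.53 in HeyC2 and -1.21 in SKOV3, where it went from 37.01 to 17.8 FPKM. PHF1 was highest in HeyC2 (0.17) and C17orf96, now named EPOP, in SKOV3 (0.19).

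Of the partner lists, canonical PRC1 had the median furthest from 0 in HeyC2. Of 9 chromobox and polyhomeotic genes and their partners that passed the filter, 5 were called lower and 0 higher, with a median of -0.64, against 9.17% of all genes called lower. Among them were CBX6 (-0.88), CBX8 (-0.77), PHC1 (-0.66) and PHC2 (-0.65), of which CBX8, PHC1 and PHC2 were named after their values were seen. CBX proteins bring PRC1 to methylated lysine 27, and PHC proteins join complexes to each other. In SKOV3, 2 of 10 were called higher, CBX2 (0.89) and PHC1 (0.69), 0 were called lower and the median was 0.36, where 20.7% of all genes were called higher. CBX2 was the highest of the list in both lines, SCML2 was the lowest in SKOV3 (-0.52), and CBX6 went from 18.6 to 10.1 FPKM in HeyC2 and from 17.7 to 26.2 in SKOV3. The short arm of chromosome 12, whose 152 genes had a median of -0.72 in HeyC2 and whose 143 genes had 0.05 in SKOV3, holds 4 genes of these lists, PHC1, the NuRD helicase gene CHD4 (-0.86 in HeyC2), AEBP2 (-0.24) and FAM60A (-0.08). Without PHC1 the canonical PRC1 median in HeyC2 was -0.54, with 4 of 8 genes called lower.

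**Figure D4:**
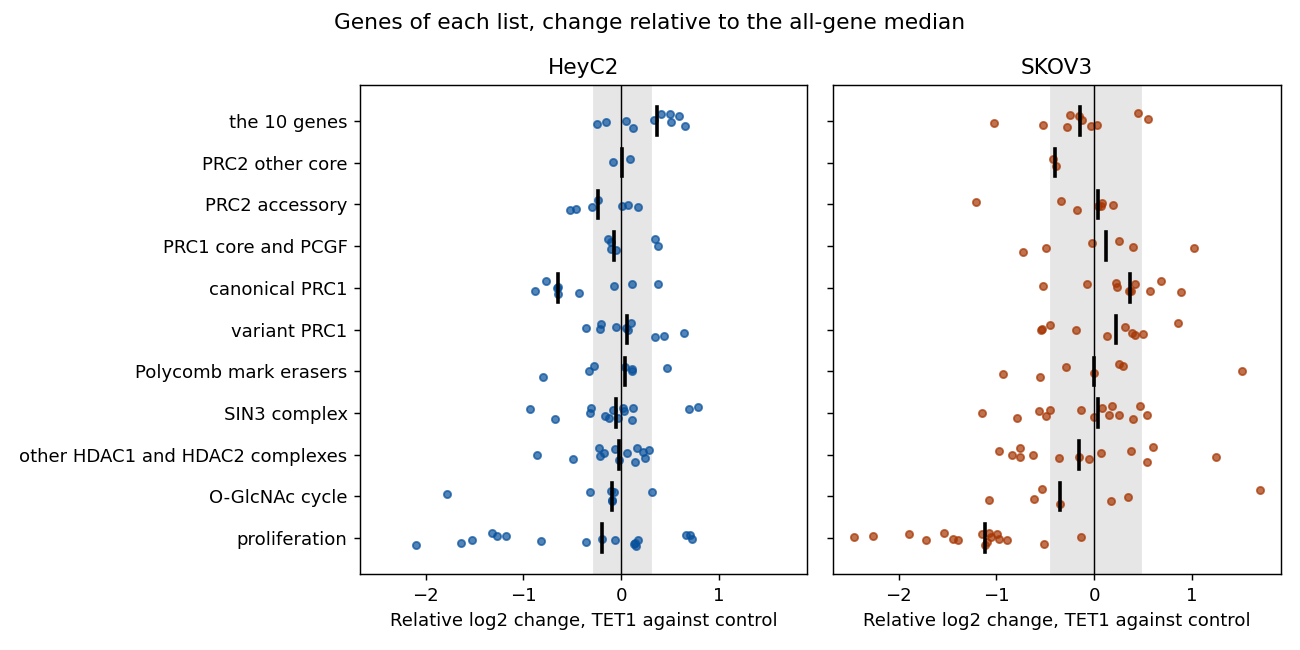
Relative log2 change of each gene of each list, TET1 against control, in HeyC2 (left) and SKOV3 (right); points are genes, black bars list medians and the grey band spans the quartiles of all genes. The canonical PRC1 median lies at -0.64 in HeyC2 and at 0.36 in SKOV3, and the proliferation median at -0.19 and -1.12.

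Among the other catalytic and PCGF genes of PRC1, 0 of 6 were called in HeyC2, and in SKOV3 PCGF2 was called higher (1.03) and PCGF6 lower (-0.73). PCGF3 was highest in HeyC2 (0.38). Of 10 variant PRC1 genes, 1 was called higher in each line, FBRSL1 in HeyC2 (0.64) and RYBP in SKOV3 (0.86), while FBRS was lowest in HeyC2 (-0.36) and KDM2B, which binds unmethylated CG pairs, lowest in SKOV3 (-0.55). Among the erasers of Polycomb marks, the lysine 27 demethylase gene KDM6B went from 1.38 to 6.75 FPKM in SKOV3 (1.51) and was at -0.33 in HeyC2. ASXL2 was lowest in HeyC2 (-0.80), USP16 was lowest in SKOV3 (-0.93), and ASXL1 was highest in HeyC2 (0.47).

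In the SIN3 complex 2 of 14 genes were called higher and 2 lower in HeyC2, near the 12.5% and 9.17% of all genes, and 0 and 2 in SKOV3, where 20.7% and 18.2% of all genes were. SAP30 was the 1 gene of all partner lists called in the same direction in both lines, at -0.93 in HeyC2 (5.72 and 2.67 FPKM) and -0.79 in SKOV3 (24.9 and 16.2 FPKM). Of 11134 genes, 3.56% were called higher and 2.54% lower in both lines, and no difference from these shares was tested. ARID4B was the highest in HeyC2 (0.78), where SIN3B (0.69) and SAP130 (-0.67), named after their values were seen, were also called. In SKOV3 SAP30L was highest (0.55) and BRMS1 lowest (-1.14). A list of 13 genes held HDAC3, HDAC8 and genes of other complexes that contain HDAC1 and HDAC2. Of these 13, 1 was called lower in HeyC2, CHD4, and 5 in SKOV3, with RCOR1 lowest (-0.98), against 9.17% and 18.2% of all genes. The others were MTA2 (-0.76) and, named after their values were seen, GATAD2A (-0.84), MBD3 (-0.76) and MBD2 (-0.63), while HDAC8 (0.60), also named afterwards, and CHD3 were called higher, against 20.7% of all genes. CHD3, a paralog of CHD4, went from 17.9 to 50.3 FPKM in SKOV3 (1.25), and MTA2 was the highest of the list in HeyC2 (0.29). Around OGT, GFPT2, an enzyme that starts the synthesis of its sugar donor, was at -1.78 in HeyC2 (25.9 and 7.16 FPKM) and 1.70 in SKOV3 (2.51 and 12.02 FPKM). PGM3 was highest of this list in HeyC2 (0.32), and HCFC1, which OGT modifies and cleaves, was lowest in SKOV3 (-1.08), where PGM3 was called lower too (-0.62). Of the paralogs of TET1, TET2 was the lowest of its family, with -0.33 (HeyC2) and -0.42 (SKOV3).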

How the data were processed

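RNA was measured in 4 libraries, control and TET1 of HeyC2 and SKOV3. Per the labels, paired-end TruSeq libraries (150 bp reads) were made, and the submitters' processing notes name hg19, Bowtie2 2.2.6 and RSEM 1.2.17 behind the deposited FPKM. The annotation and read totals are not given in the sources used here. The scaling of the TET1 libraries to GAPDH was read from the values, 100% of which below 40 FPKM lay on its grid, and was removed before a pseudocount of 1 FPKM was added. Genes with a mean below 1 FPKM over both libraries of a line were left out.

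Fragments were estimated as the depth at which low FPKM of genes with 1 transcript fall on whole fragments, with 180 bases taken from each transcript length. Intervals at 95% are Clopper-Pearson for changes, exact Poisson for levels and normal for ratios. Positions came from GENCODE on GRCh37, and 22076 of 26506 symbols had a length and GC content. The 10 genes and all lists were chosen with earlier results of these data known. Named list genes are those called alike in both lines or highest or lowest in a line, and some listed genes are not reported here. The EZH2 to SUZ12, EZH2 to EED, RING1 to BMI1 and HDAC1 to SIN3A ratios were added after values were seen. No test was run. On simulated data, the scale factor, the depth of a control library and large changes planted in genes with many fragments were checked. The intervals, the ratios, the correction for GC content and length and the promoter counts were not checked in this way. Python 3.11.15, numpy 2.4.6, pandas 2.3.3, scipy 1.17.1 and matplotlib 3.10.9 were used.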

Additional observations from a re-analysis of the deposited data

Results flagged for a closer look

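The 2 lines had opposite signs of the relative log2 change for 7 of the 10 genes, with 1 library pair per line, and none of these differences was tested. Of all genes, 25.7% lay above the median in both lines and 29.5% below it in both, so the rest differed in sign or lay at it. SUZ12 was at 0.65 in HeyC2 and -0.16 in SKOV3, HDAC1 at 0.34 and -0.53, and HDAC2 at 0.12 and -0.28, and for these genes the counting intervals of both lines exclude 0. For HDAC2 in HeyC2 the interval only just does so (0.006 to 0.24), and it rests on estimated fragments. For EED (0.40 and -1.02), EZH2 (0.047 and -0.25), RING1 (0.51 and -0.03) and SIN3A (-0.16 and 0.03) at least 1 of the intervals includes 0. The SKOV3 sign turned under 6 of 10 alternatives for RING1, under 4 for SUZ12 and under 1 each for EZH2, SIN3A, HDAC1 and HDAC2, and the HeyC2 sign under 1 each for EZH2 and SIN3A.

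Of the ratios within a library, HDAC1 to HDAC2 changed by 0.21 in HeyC2 and -0.25 in SKOV3 on the log2 scale, HDAC1 to SIN3A by 0.51 and -0.57, and EZH2 to EED by -0.41, with an interval of -1.08 to 0.25 that includes 0, and 0.87. Among the listed genes, GFPT2 was called lower in HeyC2 (-1.78) and higher in SKOV3 (1.70), and CCNE2 higher in HeyC2 (0.73) and lower in SKOV3 (-1.08). These differences were not tested either.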

How the results depend on the processing

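No paired analysis was possible because each condition has 1 library and the labels give no replicate numbers. With the deposited FPKM not centred, 10 genes were higher in HeyC2 (median 2.05) and 3 higher and 0 lower in SKOV3 (median 0.47), since every gene of a TET1 library then carries the GAPDH factor. Upper-quartile centring left 1 gene higher in HeyC2, since OGT fell short at 0.571. In SKOV3, 2 genes were higher without centring before the GAPDH scaling, with upper-quartile centring and as TPM, with medians of 0.052, 0.033 and 0.11, and 1 was higher with pseudocounts of 0.1 or 0.01 and with a mean of at least 5 FPKM. A 2-fold limit left 0 genes higher in HeyC2, and a 1.2-fold limit gave 6 higher in HeyC2 and 2 higher and 3 lower in SKOV3. The share of all genes called was computed only with the processing used above, so counts under these alternatives cannot be read against all genes. Of the list medians, a mean of at least 5 FPKM moved PRC2 accessory from -0.24 to -0.10 and variant PRC1 from 0.059 to 0.36 in HeyC2 and turned the reported Polycomb targets in SKOV3 from 0.64 over 7 genes to -0.55 over 4, while no filter gave 0.043 over 10. Correction for GC content and length moved the TET family from -0.16 to 0.024 in HeyC2 and variant PRC1 from 0.22 to 0.048 in SKOV3. The setting without genes of the short arm of chromosome 12 was added after the data were seen. Depth limits EED most (65 fragments in the HeyC2 control, 81 in SKOV3 TET1), then EZH2 in HeyC2 (71), which a mean of at least 5 FPKM removes. Of the 10 genes, 7 kept 1 sign under all alternatives that gave a value in HeyC2 and 3 in SKOV3. Apart from the GAPDH factor, the cause of these shifts was not tested.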

Other observations

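A list of 12 genes reported as silenced through Polycomb in cancer or development was also read, without a test. CDKN2A and CDKN2B, the cell cycle inhibitors at the locus through which BMI1 is best known, were listed at 0 in all 4 libraries. Whether this locus is lost or silenced in these cells was not tested. RUNX3 was called higher in both lines, with 0.07 and 3.63 FPKM in HeyC2 control and TET1 and 1.58 and 3.59 in SKOV3, and SOX17 was called lower in both, with 7.01 and 2.64 FPKM in HeyC2 and 79.4 and 42.2 in SKOV3. SLIT2 was highest in SKOV3 (1.57), from 1.30 to 6.82 FPKM. Of the list, 2 of 8 genes that passed the filter were called higher and 2 lower in HeyC2, and 4 of 7 higher and 2 lower in SKOV3, and TIMP3 (1.61) and PAX6 (-0.82) in HeyC2 and CDKN1C (0.97) and CDH1 (0.98) in SKOV3 were named after their values were seen. These counts stand against 12.5% and 9.17% of all genes in HeyC2 and 20.7% and 18.2% in SKOV3. RUNX3 and TIMP3 (0.13 and 2.58 FPKM in HeyC2 control and TET1) passed the filter in HeyC2 only through the TET1 library. Their call as higher there followed from the filter, so that HeyC2 count cannot be read against the 12.5%. TIMP3 did not pass the filter in SKOV3 (0.48 and 0 FPKM). Calls in both lines were made for 3.56% (higher) and 2.54% (lower) of 11134 genes. Because the HeyC2 call of RUNX3 followed from the filter, its call in both lines cannot be read against the 3.56%.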
